A study of Mus musculus with 48 samples.

Results

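The 10 mRNAs described here encode mTORC1, the switch that turns this kinase complex on, 1 of its effector kinases and the La-related, RNA-binding proteins LARP1 and LARP4. They were chosen by gene name, as 10 of the 50600 genes counted: Mtor, Rptor, Mlst8 and Akt1s1 for the complex, Rheb, Tsc1 and Tsc2 for the switch, Rps6kb1 for the effector kinase, and Larp1 and Larp4. All 10 passed the filter on low counts, which kept 13889 genes. The RNA came from mPDAC cells, a cell line of mouse pancreatic ductal adenocarcinoma whose labels give an FVB/N x C57BL6 background and an age of 8 weeks. In 3 cultures the cells had received the nucleolin antagonist N6L at 50 µM for 48 h, and 3 cultures were non-treated (NT). Each lysate gave a cytoplasmic library and a library of pooled polysomal fractions, so that 12 libraries in 4 groups of 3 were compared. All groups come from a single cell line, cultured without the other cells of a tumour, and all cultures received emetine, which holds ribosomes on mRNA, before lysis.

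mTORC1 couples the supply of amino acids, growth factors and energy to cell growth. Mtor encodes the kinase, Rptor the subunit that recruits its substrates, Mlst8 a subunit that binds the kinase domain, and Akt1s1 the inhibitory subunit PRAS40. The small GTPase Rheb activates the kinase when it carries GTP, and the proteins of Tsc1 and Tsc2 form the complex that returns Rheb to its inactive form. Active mTORC1 phosphorylates the S6 kinase encoded by Rps6kb1, and it phosphorylates LARP1, which binds the cap and the adjoining pyrimidine tract of mRNAs with a 5′ terminal oligopyrimidine (5′TOP) sequence. LARP4 binds poly(A) and the poly(A)-binding protein and is known to stabilise mRNAs. In tumour cells, those of the pancreas included, the pathway is known for its control of protein synthesis. The libraries measure the mRNAs of these genes, not the activity or phosphorylation of their proteins.

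The transcription starts of 3 of the mRNAs and of Rps6, a ribosomal protein mRNA, are shown because LARP1 reads this end of its targets. Each line gives 15 bases before and 15 from the start in RefSeq (GRCm38.p6), 5′ to 3′ on the strand of the gene, with the first 5 transcribed bases in capitals. The windows lie at chr11:58009049-58009078 on the plus strand for Larp1, chr4:148448567-148448596 on the plus strand for Mtor, chr5:24842347-24842376 on the minus strand for Rheb and chr4:86857353-86857382 on the minus strand for Rps6.
Larp1: cggctaggcgcgccgGAGCCttctgcccgg
Mtor: cccgccctccccaccTCCCTggcctagaag
Rheb: gcgagcgagaggcagCCGCGcccgccgccg
Rps6: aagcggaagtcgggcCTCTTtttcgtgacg
A C followed by at least 4 pyrimidines (C or T) from the first base, searched on the strand of the gene, was found at the RefSeq start of 0 of the 10 mRNAs. It was found at 823 of 32851 starts in all (2.51%), at 15 of 77 starts of ribosomal protein genes (19.5%), and at that of Rps6, whose run of pyrimidines is 9 bases long. Mtor begins with 5 pyrimidines, of which the first is T, and Larp1 begins with a purine. A RefSeq start is a single annotated position, and the starts used in mPDAC cells were not measured here. The study describes the 5′TOP sequence as typical of ribosomal protein mRNAs, yet the search met it at only 19.5% of their starts. It therefore misses most such mRNAs, and 0 of 10 cannot show that the 10 mRNAs lack the sequence.

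The summed counts of the libraries ranged from 19519911 to 44972333, and the counts of the 10 genes in a library from 366 for Tsc1 to 11601 for Akt1s1. The keratins and other epithelial markers were expressed, except that Epcam, 1 of the 7 markers listed, was below 3 CPM (counts scaled to the library size) in every library. All 5 fibroblast, all 4 leukocyte and all 3 endothelial markers were also below 3 CPM in every library. Of 4 acinar markers, 3 were below 3 CPM, 2 of them at 0 counts, and the summed acinar level was 33.0 to 44.3 CPM in NT cytoplasm and 27.6 to 37.1 CPM in N6L cytoplasm. The share of mitochondrial counts was 0.752% ± 0.266 in NT cytoplasm and 0.184% ± 0.0604 in N6L cytoplasm (SD, n = 3). Its part in the results below was not tested. Levels are given as CPM scaled by edgeR's TMM factors or, between genes, as RPKM, which divides the CPM by the length of all exons of a gene in kilobases. Both are shares of a library, so that a change in the total RNA per cell does not appear in them, and fewer cells and less RNA per cell cannot be told apart.

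In NT cytoplasm the level per length was highest for Akt1s1, at 72.5 ± 4.54 RPKM (SD, n = 3), and lowest for Tsc1, at 2.16 ± 0.540 RPKM. Rheb followed at 30.5 ± 3.71 RPKM and Larp1 at 28.5 ± 3.48 RPKM, 2 levels whose ranges overlapped. On this length the mRNAs of the activating GTPase and of the TOP-binding protein were not distinct in level, and both lay above that of the kinase itself. Mlst8 (7.55 RPKM), Larp4 (7.38 RPKM), Rps6kb1 (6.53 RPKM) and Tsc2 (5.86 RPKM) formed a run in which each overlapped its neighbour. Rptor, at 3.96 RPKM, overlapped Mtor, at 3.08 RPKM, and Mtor did not overlap Tsc1. In N6L cytoplasm Akt1s1 was still first (48.5 RPKM) and Tsc1 last (4.14 RPKM), but Larp1 (30.8 ± 4.51 RPKM) now stood above Rheb (20.7 ± 1.77 RPKM) with no overlap. At the lower end Mtor (4.98 RPKM), Rptor (4.42 RPKM) and Tsc1 (4.14 RPKM) each overlapped the next. The levels and their order depend on the length used. With the longest transcript in place of all exons, 32 of 40 group means moved by more than 1 SD, and Rheb stood above Larp1 in both NT cytoplasm (58.2 and 29.5 RPKM) and N6L cytoplasm (39.6 and 31.8 RPKM). The lowest level in N6L cytoplasm was then that of Mtor (5.88 RPKM), below Tsc1 (6.36 RPKM), while Akt1s1 was first on either length.

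**Figure D1:**
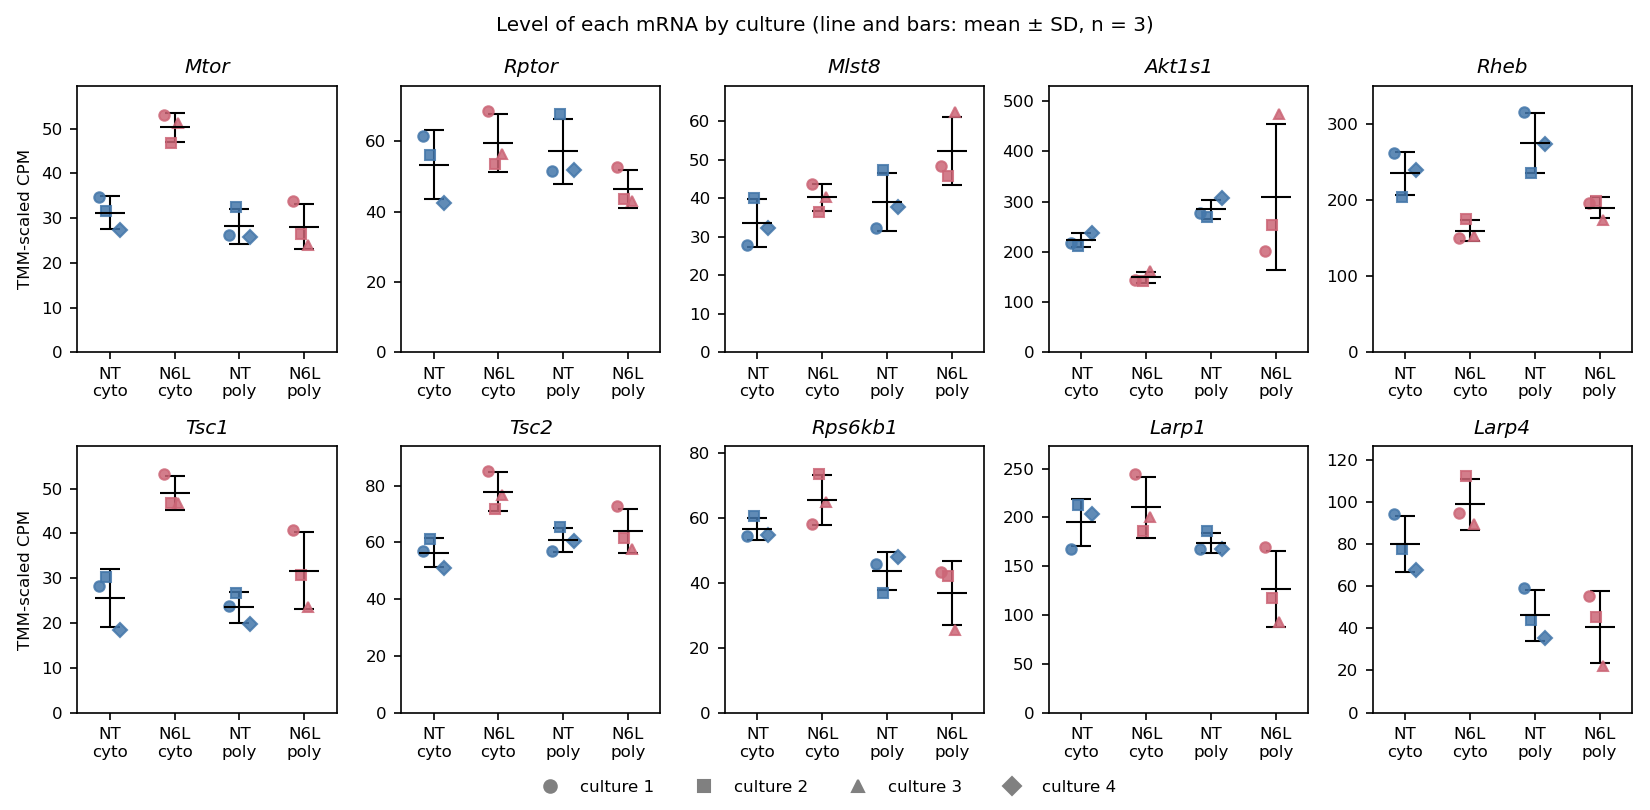
TMM-scaled CPM (y axis, from 0, a separate scale for each gene) of the 10 mRNAs in the 4 groups (x axis: cyto, cytoplasm; poly, polysomes), with NT cultures in blue, N6L cultures in red and black bars for mean ± SD (n = 3). In the cytoplasm the N6L points of Mtor, Tsc1 and Tsc2 sit above all NT points and those of Rheb and Akt1s1 below them, and among N6L polysomes culture 3 gives the highest Akt1s1 point (474 CPM) and the lowest Larp1 point (92.8 CPM).

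The comparison of N6L-treated with non-treated cytoplasm asks whether the amount of each mRNA changed. Tsc1, Tsc2 and Mtor rose and Rheb fell. The opposite calls of Rheb and Tsc1 were kept in a fit corrected for transcript length and GC content, described further on, and those of Tsc2 (0.09, FDR 0.491 in edgeR's test) and Mtor (0.22, FDR 0.100) were not. These 4 of 10 mRNAs passed a limit of 0.05 on the false discovery rate (FDR), the Benjamini-Hochberg adjusted p of the quasi-likelihood test of edgeR, where 28.3% of all genes tested did. In the upward direction 3 of 10 passed, against 14.5% of all genes, and in the downward direction 1 of 10, against 13.8%. The median log2 difference of the 10 was 0.24, beside 0.04 for all genes tested.

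Tsc1, the scaffold subunit of the complex, stood at 28.2, 30.3 and 18.3 CPM in NT cultures 1, 2 and 4 and at 53.3, 46.9 and 46.7 CPM in N6L cultures 1, 2 and 3. Every N6L culture lay above every NT culture, and the fitted log2 difference was 0.93 ± 0.22 (SE, 3 cultures a group), a 1.91-fold rise (FDR 0.00923 in edgeR's test). Tsc2, the subunit that acts on the GTP of Rheb, stood at 57.1, 61.2 and 50.9 CPM in NT and at 85.2, 71.8 and 76.7 CPM in N6L cultures. These ranges did not overlap either, with a log2 difference of 0.47 ± 0.15 (FDR 0.0294 in edgeR's test), a smaller rise than that of Tsc1. Rheb stood at 261.7, 204.9 and 239.3 CPM in NT and at 150.9, 175.8 and 153.5 CPM in N6L cultures. All 3 N6L values lay below the NT values, and the log2 difference was -0.56 ± 0.15, 0.680 of the NT level (FDR 0.0172 in edgeR's test).

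The ratio of Rheb to Tsc1 per kilobase within a library, in which the scaling of the library cancels, was 14.4 in NT cytoplasm (range 10.4 to 20.0) and 5.01 in N6L cytoplasm (4.34 to 5.75). For Rheb to Tsc2 it was 5.19 (4.17 to 5.86) in NT and 2.56 (2.21 to 3.05) in N6L cytoplasm. Neither pair of ranges overlapped. These ratios were chosen after the values of the genes had been seen and are given without a test. A trend with transcript length or GC content does not cancel in them. Pairs outside the switch fell without overlap too. Rheb to Mtor was 9.88 (8.49 to 11.5) in NT and 4.16 (3.73 to 4.93) in N6L cytoplasm. Akt1s1 to Mtor was 23.6 (20.8 to 28.8) and 9.74 (8.90 to 10.4). How often other pairs of genes separate in this way was not counted. In the polysomes the Rheb to Tsc1 ratio was 18.0 (13.5 to 21.1) in NT and 9.41 (7.38 to 11.4) in N6L libraries, again without overlap.

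Mtor stood at 34.6, 31.6 and 27.3 CPM in NT cultures and at 53.0, 46.7 and 51.4 CPM in N6L cultures. The N6L range lay above the NT range, with a log2 difference of 0.69 ± 0.17, a 1.61-fold rise (FDR 0.0105 in edgeR's test). Rptor, whose protein presents substrates to the kinase, had overlapping ranges of 42.4 to 61.6 CPM in NT and 53.4 to 68.7 CPM in N6L cytoplasm, and a log2 difference of 0.16 ± 0.18 (FDR 0.531). Within a library the per-kilobase ratio of Rptor to Mtor was 1.28 in NT cytoplasm (1.17 to 1.34) and 0.883 in N6L cytoplasm (0.823 to 0.973), a ratio also chosen after the values were seen. Mlst8 overlapped too, with a log2 difference of 0.26 ± 0.19 (FDR 0.301). Of the 4 subunits of the complex, Mtor alone passed.

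Akt1s1, the inhibitory subunit, stood at 218.3, 211.7 and 238.4 CPM in NT and at 143.2, 142.3 and 161.7 CPM in N6L cytoplasm. The ranges did not overlap, but the log2 difference of -0.58 ± 0.24 did not pass (FDR 0.0796 in edgeR's test). It passed under 6 alternatives: DESeq2 (-0.62, FDR 0.0473), and edgeR's test with no filter on low counts (-0.54, FDR 0.0326), with only the groups compared (-0.62, FDR 0.00369), with the culture number as a block (-0.73, FDR 0.0108), with that block and an offset for length and GC content (-0.42, FDR 0.0210), and without N6L culture 3 (-0.64, FDR 0.0102). Culture 3 is the one in which the polysomal level of Akt1s1 stood apart. Counting Akt1s1, the ranges of 5 of 10 mRNAs did not overlap in the cytoplasm, where those of 54.9% of all genes did not. Rps6kb1 (0.21 ± 0.19, FDR 0.422), Larp1 (0.11 ± 0.20, FDR 0.702) and Larp4 (0.31 ± 0.27, FDR 0.412) had overlapping ranges and did not pass in edgeR's test.

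Several of these calls were lost when 1 culture was left out. Such fits have fewer samples, so a lost call does not show that the culture left out had made it. Without NT culture 4, which had the lowest Mtor, Tsc1 and Tsc2 levels, Mtor (0.57, FDR 0.0571) and Tsc2 (0.37, FDR 0.146) no longer passed in edgeR's test, and without N6L culture 2 Mtor (0.69, FDR 0.0553), Tsc1 (0.91, FDR 0.0542) and Tsc2 (0.47, FDR 0.111) did not. Without NT culture 1 Rheb (-0.47, FDR 0.0716) and Tsc2 (0.47, FDR 0.0860) were lost, and without N6L culture 1 Rheb (-0.51, FDR 0.0563) and Tsc2 (0.40, FDR 0.0741). The directions of these genes were the same in every such fit.

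Among polysomal RNAs, where the comparison asks which mRNAs were more or less abundant on several ribosomes, Rheb fell and no other of the 10 passed. This is 1 of 10 mRNAs, where 9.67% of all genes tested passed. Rheb stood at 315.8, 235.8 and 274.2 CPM in NT polysomes and at 196.4, 199.6 and 174.6 CPM in N6L polysomes. The ranges did not overlap, as in the cytoplasm, and the log2 difference was -0.53 ± 0.15 (FDR 0.0428 in edgeR's test), close to that of the cytoplasm. The ranges of the other 9 overlapped, so that 1 of 10 did not overlap, beside 25.6% of all genes. The call of Rheb lies near the limit: leaving out NT culture 1, NT culture 4 or any 1 of the 3 N6L cultures gave log2 differences of -0.57 to -0.42 with an FDR of 0.0652 to 0.196 in edgeR's test.

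Mtor, which had risen in the cytoplasm, stood at 26.2, 32.6 and 25.7 CPM in NT polysomes and at 33.7, 26.5 and 24.0 CPM in N6L polysomes. These ranges overlapped and the fitted log2 difference was 0.00 ± 0.17 (FDR 0.993 in edgeR's test). Tsc2 likewise had a polysomal log2 difference of 0.07 ± 0.15 (FDR 0.795) and Tsc1 one of 0.43 ± 0.22 (FDR 0.230). For these 3 genes the cytoplasmic rise was thus not met by a polysomal rise that passed the test, and whether the fractions differed is the question of the interaction given further on.

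Larp1 stood at 167.8, 186 and 167.8 CPM in NT polysomes and at 169.8, 117.4 and 92.8 CPM in N6L polysomes. N6L culture 1 lay within the NT range and the other two below it. The log2 difference of -0.46 ± 0.20 did not pass (p = 0.0380, FDR 0.161 in edgeR's test), and it did without N6L culture 1 (-0.73, FDR 0.0210). Larp4 stood at 59.3, 43.9 and 35.5 CPM in NT and at 55.2, 45.2 and 22.0 CPM in N6L polysomes, with overlapping ranges and a log2 difference of -0.18 ± 0.28 (FDR 0.728). Rptor (-0.30 ± 0.18, FDR 0.313), Rps6kb1 (-0.24 ± 0.19, FDR 0.467), Mlst8 (0.42 ± 0.19, FDR 0.176) and Akt1s1 (0.12 ± 0.24, FDR 0.783) did not pass in edgeR's test. N6L culture 3 gave the lowest polysomal Larp1, Larp4, Rps6kb1, Mtor, Tsc1, Tsc2, Rptor and Rheb values of its group and the highest Akt1s1 and Mlst8 values.

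**Figure D2:**
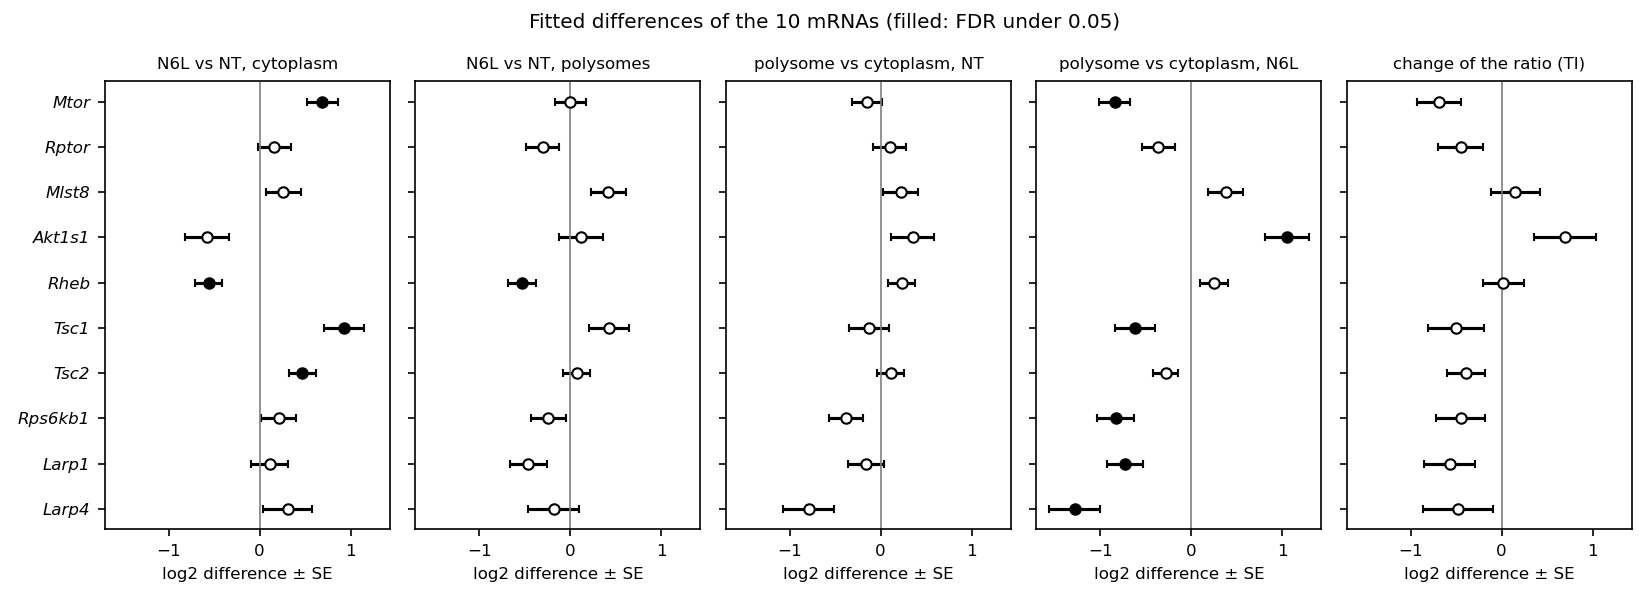
Fitted log2 differences with SE (x axis) of the 10 mRNAs (y axis) in the 5 comparisons, filled where the FDR was under 0.05. In N6L cytoplasm Tsc1, Mtor and Tsc2 are filled above 0 and Rheb below, in the polysomes Rheb alone is filled, and no point is filled for NT polysomes against NT cytoplasm or for the change of the ratio.

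The ratio of polysomal to cytoplasmic level describes how much of an mRNA was found with several ribosomes, relative to the other mRNAs of the same culture. In non-treated cells 0 of 10 mRNAs passed, where 0.209% of all genes did. At an unadjusted p under 0.05 there was 1, Larp4 (log2 difference -0.79 ± 0.28, p = 0.0123, FDR 0.244 in edgeR's test), where 13.4% of all genes were under this limit. DESeq2 also passed 0 at the FDR limit, beside 2.02% of all genes in that fit. The log2 ratios of Larp4 in NT cultures 1, 2 and 4 were -0.67, -0.82 and -0.93, the lowest of the 10 mRNAs in each culture. Those of Akt1s1 were 0.35, 0.35 and 0.36, the highest in each culture. The polysomal and cytoplasmic ranges of 3 of 10 mRNAs (Akt1s1, Rps6kb1 and Larp4) did not overlap in NT cells, against 22.4% of all genes.

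In N6L-treated cells the polysomal level was lower than the cytoplasmic level for Larp4, Mtor, Rps6kb1, Larp1 and Tsc1 and higher for Akt1s1. These 6 of 10 passed, where 39.0% of all genes tested did. Downward there were 5 of 10, beside 20.6% of all genes, and upward 1 of 10, beside 18.4%. The median log2 difference of the 10 was -0.49 and that of all genes 0.03, and with the length and GC correction they were 0.01 and 0.00. The ranges of 8 of 10 did not overlap, beside 56.9% of all genes.

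For Larp4 the log2 ratios in N6L cultures 1, 2 and 3 were -0.78, -1.32 and -2.02, and the fitted difference was -1.28 ± 0.28 (FDR 0.00600 in edgeR's test). For Larp1 they were -0.53, -0.66 and -1.11, with a fitted difference of -0.73 ± 0.20 (FDR 0.0133). Both La-related mRNAs had their lowest ratio in culture 3 and a ratio below 0 in every N6L culture. For Mtor the ratios were -0.65, -0.82 and -1.09 and the fitted difference -0.84 ± 0.17 (FDR 0.00500), and for Rps6kb1 they were -0.43, -0.81 and -1.36 and the difference -0.83 ± 0.20 (FDR 0.00733). Tsc1 had ratios of -0.38, -0.61 and -0.99 and a difference of -0.62 ± 0.22 (FDR 0.0374).

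Akt1s1 went the other way in N6L-treated cells, with log2 ratios of 0.49, 0.83 and 1.55 and a fitted difference of 1.05 ± 0.24 (FDR 0.00676 in edgeR's test). Without N6L culture 3 it was 0.67 (FDR 0.0254). Rptor (-0.36 ± 0.18, FDR 0.127), Tsc2 (-0.28 ± 0.14, FDR 0.130), Mlst8 (0.38 ± 0.19, FDR 0.124) and Rheb (0.25 ± 0.15, FDR 0.202) did not pass. When the fractions of a lysate were paired, with culture as a block, 9 of 10 mRNAs passed beside 53.7% of all genes, the additional ones being Rptor (-0.35, FDR 0.0448), Tsc2 (-0.29, FDR 0.0459) and Mlst8 (0.37, FDR 0.0291). Without N6L culture 2 Mtor and Akt1s1 alone passed, as Larp4 (FDR 0.0507), Rps6kb1 (FDR 0.0535), Larp1 (FDR 0.0708) and Tsc1 (FDR 0.156) did not. Without N6L culture 3 Larp1 (-0.58, FDR 0.0796) and Tsc1 (-0.48, FDR 0.190) did not, and without NT culture 1 (FDR 0.0612) or NT culture 2 (FDR 0.0509) Tsc1 did not.

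**Figure D3:**
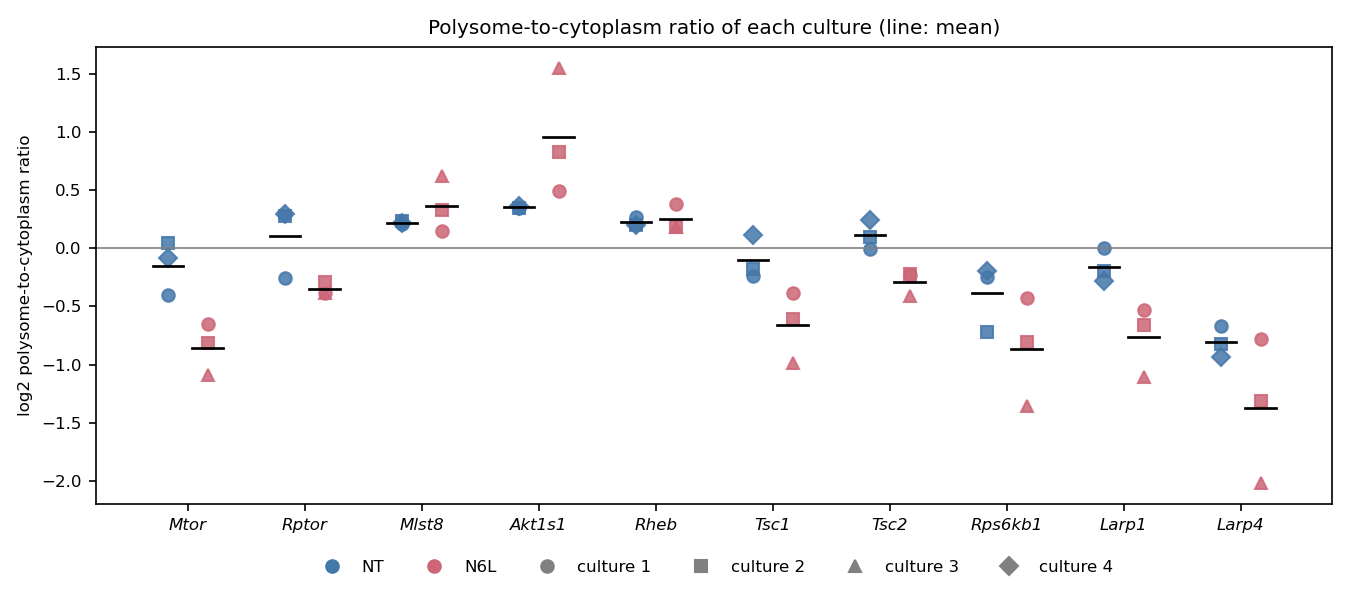
log2 ratio of polysomal to cytoplasmic level (y axis) of the 10 mRNAs (x axis) in each culture, NT in blue and N6L in red, with black lines at the means. The N6L points of Mtor, Rptor, Tsc1, Tsc2 and Larp1 lie below all NT points and those of Akt1s1 above them, while those of Mlst8, Rheb, Rps6kb1 and Larp4 overlap the NT points.

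The translational index (TI) is the difference between the N6L and the NT log2 ratio. Its test, the interaction of fraction and treatment, asks directly whether polysome loading relative to the other mRNAs changed. For 0 of 10 mRNAs did it pass the FDR limit, as for 0% of all genes tested, and DESeq2 likewise passed 0. At an unadjusted p under 0.05 there was 1 of 10, Mtor, where 7.73% of all genes were under this limit. DESeq2 gave 2, beside 8.88% of all genes. A change of loading relative to the other mRNAs was therefore not shown for any of the 10 at this number of cultures. A loss of loading shared by all mRNAs does not appear in the TI. The study reports a strong fall of the polysome peaks under N6L.

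The log2 ratios of Mtor were -0.40, 0.04 and -0.09 in NT cultures and, as given above, -0.65, -0.82 and -1.09 in N6L cultures. These ranges did not overlap, and the TI was -0.69 ± 0.24 (p = 0.0115, FDR 0.555 in edgeR's test). For Larp1 the NT ratios were 0.00, -0.19 and -0.28, all above those of the N6L cultures, and the TI was -0.57 ± 0.28 (p = 0.0641, FDR 0.555). For Akt1s1 the TI was 0.70 ± 0.34 (p = 0.0551, FDR 0.555), and without N6L culture 3 it was 0.32 (FDR 0.996). Rheb, which fell in both fractions, had a TI of 0.02 ± 0.22 (FDR 0.971).

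The TI of the remaining mRNAs was -0.50 ± 0.31 for Tsc1, -0.48 ± 0.39 for Larp4, -0.45 ± 0.25 for Rptor, -0.45 ± 0.27 for Rps6kb1, -0.39 ± 0.21 for Tsc2 and 0.15 ± 0.27 for Mlst8. The ratios of 6 of 10 mRNAs did not overlap between treatments, beside 29.7% of all genes, and the median TI of the 10 was -0.45, beside 0.01 for all genes. With culture as a block the FDR of the TI was 0.196 or above for Mtor (-0.71), Larp1 (-0.61) and Akt1s1 (0.61), and 0 of 10 passed. At an unadjusted p under 0.05 there were 6 of 10 in that fit, beside 21.6% of all genes. With the length and GC correction added to the block there were 2 of 10, where 2355 of 13867 genes were under this limit. With that correction and no block there was 1 of 10, where 934 of 13867 genes were.

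Most of these transcripts are longer than those of other genes, and some are unusual in base composition. Of the 10 mRNAs 9 have a longest transcript above the median of the genes tested (3102 bases), from 8564 bases for Mtor downward, and Akt1s1, with 2207 bases and a GC content of 60.7%, is the exception. Larp4 (38.7% GC) and Rps6kb1 (39.2% GC) lie at the 2.97th and 3.89th percentile of GC content. The counts were therefore also fitted with an offset in each library for the length and GC content of the transcripts, which removes any difference shared by mRNAs of like length and composition, whatever its source. The source itself was not tested.

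With the offset, the fall of Rheb (-0.83, FDR 0.00174) and the rise of Tsc1 (0.47, FDR 0.0183) passed in the cytoplasm in edgeR's test, which is 2 of 10 beside 29.4% of all genes. Mtor (0.22, FDR 0.100) and Tsc2 (0.09, FDR 0.491) did not pass. The median log2 difference of the 10 mRNAs in the cytoplasm was then -0.12 in place of 0.24. In the polysomes 3 of 10 passed, beside 19.9% of all genes: Rheb (-0.51, FDR 0.0251), Larp1 (-0.59, FDR 0.0195) and Rptor (-0.44, FDR 0.0243) were lower in N6L-treated cells. The lower polysomal levels of Larp1 and Rptor were thus called, among the fits run, only in those with the offset and, for Larp1, in the one without N6L culture 1.

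Between polysomes and cytoplasm of N6L-treated cells, 3 of 10 passed with the offset, beside 19.7% of all genes. Mtor was lower (-0.30, FDR 0.0496 in edgeR's test), and Akt1s1 (0.40, FDR 0.0391) and Rheb (0.72, FDR 0.00691) were higher. Larp4 (-0.27, FDR 0.159), Larp1 (-0.34, FDR 0.146) and Tsc1 (-0.06, FDR 0.780) no longer passed, and the difference of Rps6kb1 turned to 0.09 (FDR 0.673). With block and offset together 6 of 10 passed, beside 35.7% of all genes, Larp1 (-0.36, FDR 0.0274), Larp4 (-0.28, FDR 0.0482) and Mlst8 (0.30, FDR 0.0212) being added. The median TI of the 10 mRNAs with the offset was -0.08, and 0 of 10 passed.

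**Figure D4:**
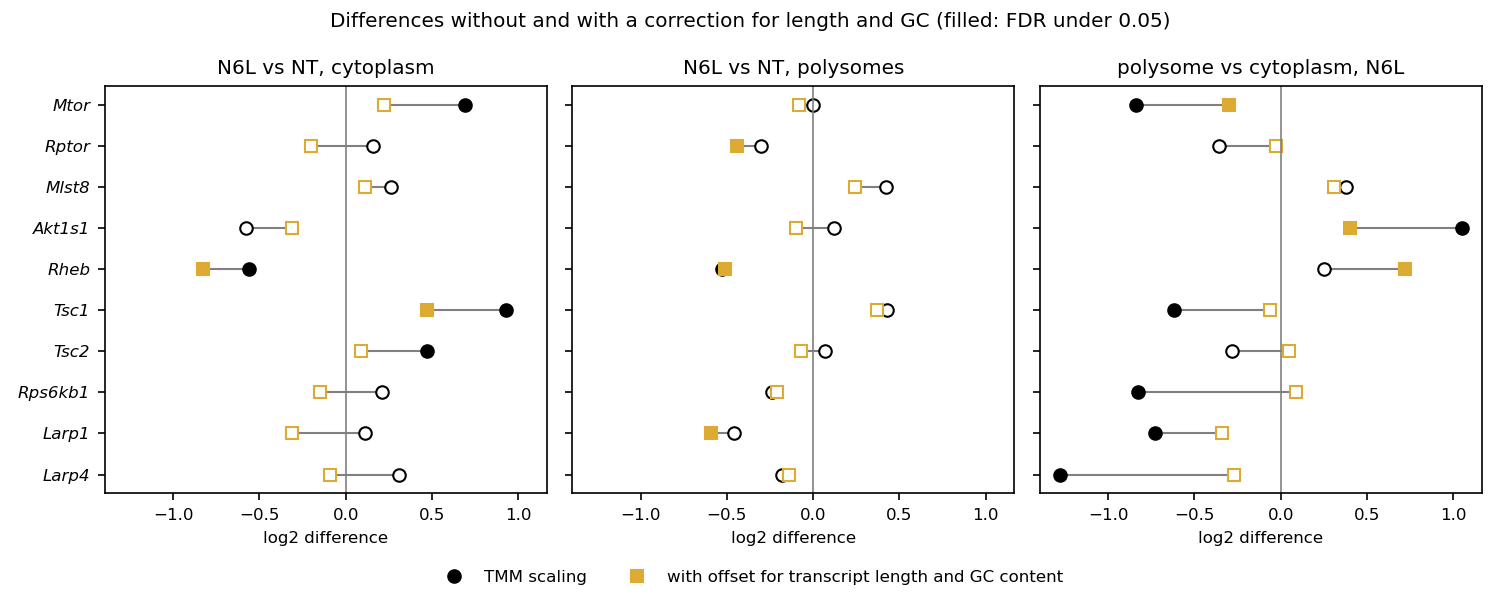
log2 differences (x axis) of the 10 mRNAs (y axis) in 3 comparisons, as black circles with TMM scaling and yellow squares with the additional offset for transcript length and GC content, filled where the FDR was under 0.05. In the cytoplasm Rheb (-0.56 and -0.83) and Tsc1 (0.93 and 0.47) are filled in both fits, and on the right the squares of Larp4 and Rps6kb1 lie far from their circles (-1.28 to -0.27 and -0.83 to 0.09).

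Around these 10 mRNAs, 82 further genes of the pathway were listed by role, of which 77 passed the filter on low counts and Prr5l, Rragb, Eif4ebp3, Grb10 and Larp6 did not. In the cytoplasm 15 of the 77 rose and 7 fell (22 in all) under N6L, near the share of all genes tested (28.3%, with 14.5% higher and 13.8% lower), and their median log2 difference was 0.08, beside 0.04 for all genes. With the offset the balance turned, to 7 higher and 12 lower, where 13.8% of all genes were higher and 15.6% lower. In the polysomes Sesn1, Ddit4l and Lpin1 rose (3) and 0 fell, beside 6.01% and 3.66% of all genes. DESeq2 called 6 higher and 4 lower there, beside 8.09% and 6.55% of all genes in that fit. EdgeR's test with the offset called 5 and 6, beside 9.75% and 10.2% of all genes. In the TI 0 passed. The roles are taken in turn, and differences between them were not tested.

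Of 7 partners of mTORC1 and mTORC2, Rictor, the defining subunit of mTORC2, rose (log2 difference 0.96 ± 0.30), as did the mTOR inhibitor Deptor (0.85 ± 0.29), and the mTORC2 subunit Prr5 fell (-0.84 ± 0.24). Of the 2 partners of TSC and Rheb, the Rheb-like GTPase Rhebl1 fell (-0.87 ± 0.16), from 34.3 ± 2.51 to 18.8 ± 1.32 CPM, the same direction as Rheb. Of 8 Rag GTPases and Ragulator subunits, which bring mTORC1 to the lysosome, 2 fell, Lamtor2 (-0.83 ± 0.21) and Lamtor5 (-0.67 ± 0.22), and 0 rose. These counts of the 3 roles stand beside 14.5% of all genes that rose and 13.8% that fell. In edgeR's test with the length and GC offset, Rictor, Prr5 and Rhebl1 passed in the same direction, while Deptor, Lamtor2 and Lamtor5 did not (FDR 0.118, 0.276 and 0.313).

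Among 20 genes of the GATOR and KICSTOR complexes and the nutrient sensors, 4 rose and 1 fell in the cytoplasm, where 14.5% of all genes rose and 13.8% fell. The sestrins, stress-responsive proteins that restrain mTORC1, were divided: Sesn1 (1.23 ± 0.20) and Sesn3 (0.89 ± 0.19) rose and Sesn2 (-0.63 ± 0.19) fell. The other two that rose, Castor2 (0.61) and Depdc5 (0.59), were at 0.15 and 0.06 with the offset. Against the same shares of all genes, 4 of 11 inputs from PI3K and Akt rose and 0 fell, namely the insulin receptor substrate Irs2 (1.07 ± 0.34), the kinase gene Pdpk1 (0.96 ± 0.28) and the PI3K subunit genes Pik3r1 (0.78 ± 0.23) and Pik3cb (0.54 ± 0.17). With the offset Sesn1 and Sesn2 passed as before, whereas Sesn3, Irs2, Pdpk1 and Pik3r1 did not (FDR 0.0552 to 0.156 in edgeR's test), nor did Pik3cb (FDR 0.656). Of 9 energy and stress inputs, Ddit4l, related to the mTORC1 inhibitor REDD1, rose in the cytoplasm (1.38 ± 0.25) and in the polysomes (1.55 ± 0.24), and no other passed.

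The substrates of mTORC1 and the S6 kinases held the gene with the largest rise and that with the largest fall of the 77 in the cytoplasm. Lpin1, which codes for the phosphatidate phosphatase lipin 1, rose from 9.60 ± 3.39 to 37.5 ± 2.17 CPM (log2 difference 1.96 ± 0.28, FDR 0.000949 in edgeR's test), and it also rose in the polysomes (1.20 ± 0.27). Eif4ebp1, whose protein represses cap-dependent initiation until mTORC1 phosphorylates it, fell from 592.6 ± 108.9 to 265.9 ± 22.6 CPM (-1.16 ± 0.22, FDR 0.00328). Pdcd4, an inhibitor of the helicase eIF4A, rose (0.87 ± 0.27). These 3 passed with the offset as well. In all 4 of 12 substrates rose and 2 fell, beside the shares of all genes given above, the others being Eif4b (0.59 ± 0.17), Ulk1 (0.51 ± 0.16) and Rps6 (-0.79 ± 0.15), which is shown above for its start. With the offset Eif4b passed (0.38, FDR 0.0367 in edgeR's test), while Ulk1 (0.26, FDR 0.0835) and Rps6 (-0.28, FDR 0.191) did not. Counts of ribosomal protein genes with near-identical copies are uncertain. Of the 4 further La-related genes and the 4 genes of other 5′TOP-binding proteins, 0 passed in the cytoplasm or the polysomes. With the offset Larp1b was lower in both fractions (-0.34 and -0.36), as was Pabpc1 (-0.50 and -0.53), Tia1 (-0.30) and Tial1 (-0.51) were lower in the cytoplasm, and Larp7 (-0.68, FDR 0.0499 in edgeR's test) was lower in the polysomes. In N6L-treated cells 3 of these 4 La-related genes were lower in polysomes than in cytoplasm, beside 20.6% of all genes: Ssb (-1.13 ± 0.29), which encodes the La protein, Larp4b (-1.12 ± 0.23) and Larp7 (-0.86 ± 0.26). With the offset Ssb (-0.87) and Larp7 (-0.95) passed, and Larp4b (-0.44, FDR 0.114 in edgeR's test), like Larp1 and Larp4, did not.

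**Figure D5:**
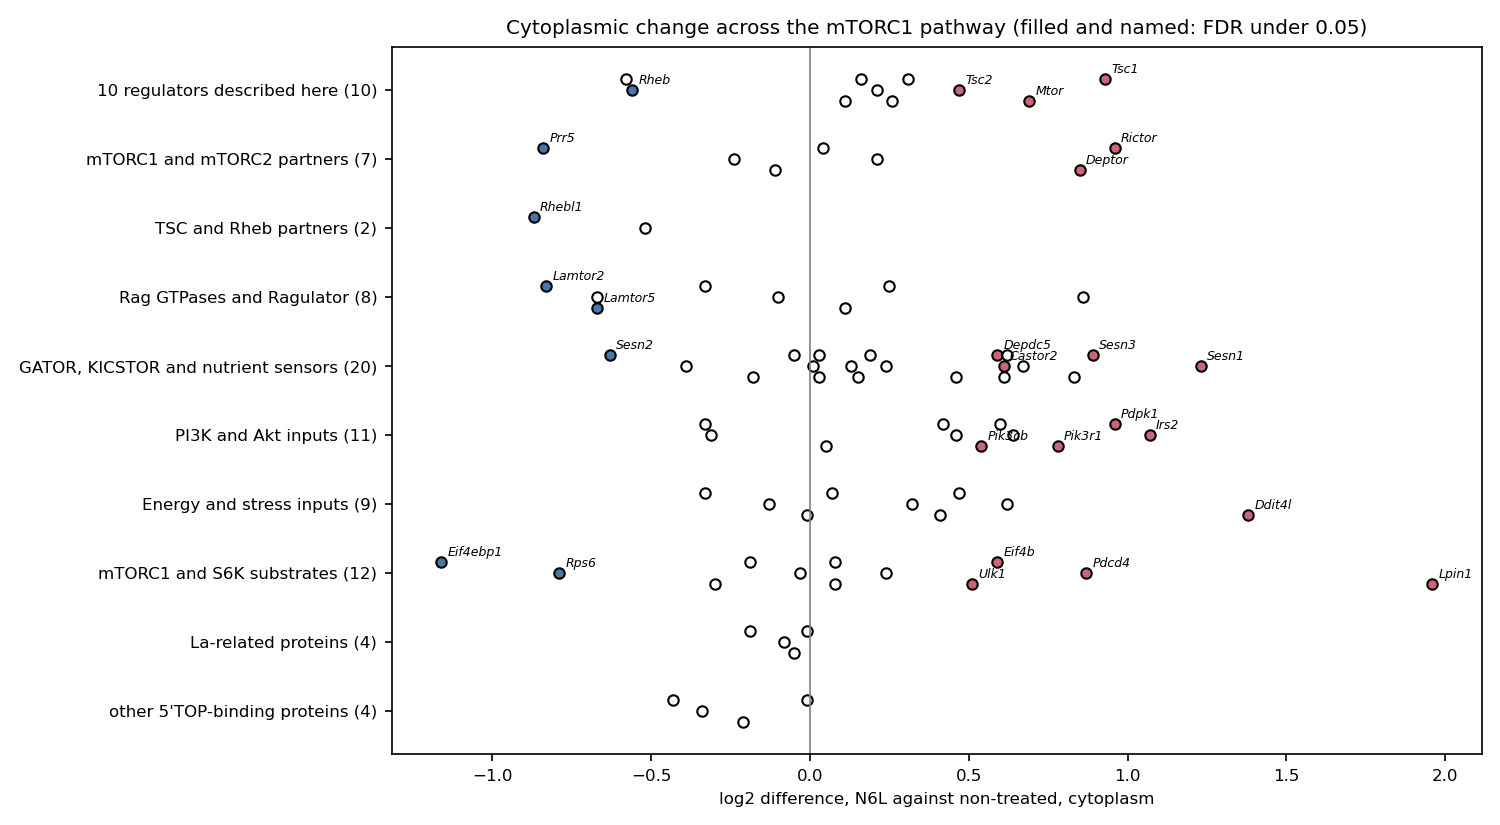
log2 difference between N6L and NT cytoplasm (x axis) of the 10 mRNAs and of the 77 further genes of the pathway, 1 row for each role with the number of genes in brackets (points are shifted vertically for legibility), filled and named where the FDR was under 0.05. The rows of the PI3K and Akt inputs and of the energy and stress inputs have filled points above 0 alone, those of the Rag GTPases and Ragulator and of the TSC and Rheb partners below 0 alone, and Lpin1 (1.96) and Eif4ebp1 (-1.16) mark the ends of the range. Of all genes tested, 14.5% would be filled above 0 and 13.8% below.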

How the data were processed

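Reads of poly(A) RNA from a stranded kit were aligned by the authors with STAR and counted per gene with HTSeq (0.5.3, build mm10 per the processing notes), and the deposited values are raw counts. For the counting, neither annotation nor strand setting is given in the sources used here. Counts may be affected where the exons of other genes overlap. On the opposite strand 22.5% of the exon bases of Mlst8 overlap Bricd5 and 7.20% of those of Tsc2 overlap Pkd1. Of the exon bases of Akt1s1, 2.90% overlap Tbc1d17, also on the opposite strand. Bricd5, Pkd1 and Tbc1d17 had 22, 5728 and 24723 counts over the 12 libraries. The 4 technical replicates of each library (48 sets) differed little from sampling noise and were summed. For 3 of N6L cytoplasm culture 2 title and description name different cultures, and the title was followed.

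Counts were filtered with filterByExpr and, after TMM scaling, entered edgeR 4.0.16 (quasi-likelihood test, 1 mean for each of 4 groups, no block). P-values were adjusted after Benjamini and Hochberg over all 13889 genes tested, and the limit was 0.05. DESeq2 1.42.0, other scalings and filters, left-out cultures, blocks and an offset for transcript length and GC content (splines, GENCODE vM21 on GRCm38) were alternatives. The fit was tested on simulated data. Log2 ratios per culture use a prior count of 2. The fractions of a culture come from 1 lysate and are paired by it, and for comparisons of fractions each of the 6 cultures was its own block when one was used. The deviations of the 2 fractions from their group means correlated by 0.364 to 0.645 in NT and 0.0368 to 0.229 in N6L cultures. That cultures are independent is not stated. The p-values of the main fit measure the spread between the libraries of a group, pooled over the 4 groups. For comparisons of fractions and the TI they leave out the pairing, which the fits with each culture as a block take in. The members and lists were chosen with earlier results of these data known. From each role of the wider list, at most the 3 genes past the limit in the cytoplasm with the largest change were named (Castor2, Depdc5, Pik3cb, Eif4b, Ulk1, Rps6, the La-related and 5′TOP-binding genes were added after their values were seen), and for 4 members the 3 genes with the most similar levels.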

Additional observations from a re-analysis of the deposited data

How the results depend on the processing

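In the cytoplasm 4 of the 10 mRNAs passed. Leaving out 1 culture gave 1 to 5, and the offset for transcript length and GC content gave 2, beside 29.4% of all genes. In the polysomes, where Rheb alone passed, leaving out 1 culture gave 0 to 1, and library totals alone, no filter on low counts and a fit of only the groups compared gave 0 each. The replicate block gave 0, beside 9.76% of all genes. The offset gave 3 with or without the block, beside 20.7% and 19.9% of all genes. Between NT polysomes and cytoplasm no filter gave 1 (Larp4) in place of 0. The block with the offset also gave 1 (Rheb, 0.40), beside 4.50% of all genes. Between N6L polysomes and cytoplasm leaving out 1 culture gave 2 to 6 and the offset 3, the latter beside 19.7% of all genes. Rps6kb1 turned to 0.09 in both fits with the offset. In the TI an unadjusted p under 0.05, chosen after seeing the data, gave 1 in place of 0, beside 7.73% of all genes. The cause of these shifts was not tested, except that fits without a culture have fewer samples. For left-out cultures, library totals alone, no filter and only the groups compared, the shares of all genes are not given. Those counts cannot tell a shift of the 10 from a shift of all genes.

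The labels link same-numbered NT and N6L cultures only by the number (correlations 0.00756 to 0.296). Number 1 gave the higher values, 0.228 in the cytoplasm and 0.296 in the polysomes. Whether these cultures share more was not tested. Their block gave 5 calls in the cytoplasm in place of 4, while the share of all genes was 34.1% in place of 28.3%. Of 840 estimates for single genes under the alternatives, 187 belonged to calls. Of these 149 were kept, 36 were lost in the same direction and 2 reversed. Of 653 others 19 were gained. Library totals alone raised the cytoplasmic median of all genes from 0.04 to 0.19, and Rheb was then at -0.41 (FDR 0.0690 in edgeR's test).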

Other observations

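Across the 12 libraries, the genes whose log2 CPM resembled that of Rheb most closely were Cnbp (Pearson's r = 0.981), Arpc5 (0.978) and 1110059E24Rik (0.977), out of 8958 genes whose mean level was 10 CPM or more. Cnbp codes for a nucleic acid-binding protein that is among the 5′TOP-binding proteins listed with the pathway, and its own differences were -0.34 ± 0.14 in the cytoplasm (FDR 0.0752 in edgeR's test) and -0.34 ± 0.14 in the polysomes (FDR 0.129). The longest transcripts of these 3 genes have 2178, 1914 and 1614 bases and a GC content of 42.3 to 46.2%, beside 4046 bases and 44.7% for Rheb. For Larp1 the closest were the calpain subunit gene Capn2 (0.969), the mitotic spindle gene Dlgap5 (0.962) and Ahnak (0.953), and for Mtor Map3k4 (0.972), Sipa1l3 (0.969) and Zzef1 (0.966). For Larp4 they were the ephrin gene Efna5 (0.990), Uba6 (0.990) and Esyt2 (0.989), with transcripts of 4032 to 6590 bases. The libraries of a culture share a lysate and the 4 groups differ in level, so these values describe the pattern over the libraries and carry no test.

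Among the 10 mRNAs themselves, the levels of Tsc1 and Tsc2, whose proteins form 1 complex, correlated by 0.921 over the 12 libraries, and those of Rps6kb1 and Larp4, the 2 with the lowest GC content, by 0.916. The lowest values were -0.915 for Akt1s1 with Larp4 and -0.886 for Akt1s1 with Mtor. Rheb correlated with Tsc1 by -0.756 and with Tsc2 by -0.721. These too are descriptions over libraries that share cultures, depth and base composition.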
